A study of Mus musculus with 75 samples.

Results

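Genes of the tectorial membrane and of its attachment to hair cells, 9 in all, were followed in single-cell RNA-Seq data of the adult mouse cochlea: Tecta, Tectb, Ceacam16, Otog, Otogl, Emilin2, Col11a2, Otoa and Strc. They were chosen by name from the 55291 genes of the deposited count table. No measured level entered the choice rule, but the choice was made with earlier results of these data known. The tectorial membrane is an acellular gel that lies over the hair bundles of the organ of Corti. It is built by supporting cells (SCs) and neighbouring epithelial cells, from collagen fibrils and from a striated matrix of non-collagenous glycoproteins. The tallest stereocilia of outer hair cells (OHCs) are anchored in it, and the anchor is a product of the OHC, whereas the gel itself is not. In an SC that turns into an OHC, the gel genes and the anchor gene are therefore read from opposite sides of the change.

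The libraries came from 75 hand-picked Tdtomato+ cells of C57BL/6 mice, in 5 groups. WT_P30 OHCs (17 cells) carried a Cre knock-in at Slc26a5, the Prestin gene, with the Ai9 reporter, and had tamoxifen at P20 and P21. WT_P60 SCs (16 cells, mostly pillar and Deiters cells) carried Fgfr3-iCreER with Ai9, and had tamoxifen at P30 and P31. The other 42 cells were taken at P60 and derived from SCs, in mice named Fgfr3-Atoh1-Ikzf2-DTR. There, tamoxifen at P30 and P31 switched on Atoh1, Ikzf2 and Tdtomato through Fgfr3-iCreER, and diphtheria toxin (20 ng/g) at P36 killed the OHCs through a receptor knocked in at Slc26a5. The study divided these 42 cells after sequencing, on Myo7a and Slc26a5 in these same libraries. By its calls, 11 were OHC-like cells (positive for both) and 16 nascent HCs (positive for Myo7a only). The other 15 were SCs failing to become HCs (positive for neither, here called failing SCs). None of the 9 genes took part in that division, although Ceacam16 was on the list of SC genes that the study picked from these libraries.

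Each library is 1 cell, and the labels name no animal. A group therefore counted as 1 sample, no p-value was computed, and all differences below are descriptions of these cells. Total reads on genes ran from 4264780 to 22934062 per cell. The number of pairs of cells with identical counts was 0. Levels are counts per 1000000 reads on genes (CPM), after TMM scaling. A cell counted as positive for a gene, or the gene as detected in it, at 1 CPM or more before scaling, with the exact Clopper-Pearson 95% interval of the share, which covers counting error only. Ratios between groups are log2 ratios of mean CPM + 1, and a gene was counted as higher or lower past 4-fold. Markers of OHCs parted the wild-type groups. The summed level of 5 OHC markers was at most 0.3 CPM in WT_P60 SCs and at least 11793.5 CPM in WT_P30 OHCs, and failing SCs lay between at 39.7 to 1508 CPM, with Espn detected in 15 of 15. The study's calls were not presence at 1 CPM. Slc26a5 was detected in 3 of 16 nascent HCs (7.5 to 14.7 CPM), while OHC-like cells had at least 15.9 CPM. Myo7a was detected in 3 of 15 failing SCs (up to 28.0 CPM), while nascent HCs and OHC-like cells had at least 94.5 and 50.0 CPM. Other markers were not absent. Of 2 inner hair cell markers, Otof was detected in 14 of 17 WT_P30 OHCs (median 427 CPM). The other, Slc17a8, was detected in 2 of 17 WT_P30 OHCs (median 0 CPM). Of WT_P60 SCs, 9 of 16 held Pecam1 and 1 of 16 Cldn5, the 2 endothelial markers. Mbp, a myelin gene, was found in 9 of 11 OHC-like cells and 11 of 16 nascent HCs. Blood markers reached 2295 CPM in OHC-like cell 2. Fibroblast markers were at most 132 CPM in any cell, and macrophage markers were at 0 in every cell outside the WT_P30 OHCs. All WT_P30 OHCs were in 1 consecutive series of library numbers and all WT_P60 SCs in another, so cell type, age and series cannot be told apart there. The 42 induced cells were spread over 5 series, A to E.

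The promoters of Strc and Otog are shown because these 2 genes marked the opposite ends of the data, Strc on the side of OHCs and Otog on the side of SCs, and because Atoh1 is a basic helix-loop-helix factor that binds E-boxes. Each is the 250 bases before the RefSeq start (GRCm38.p6), 5′ to 3′ on the strand of the gene, with matches to the E-box CANNTG in capitals. The RefSeq promoter table matched 7 of the 9 genes. The first window lies at chr2:121380941-121381190 on the minus strand, inside the annotated span of Strc, and the second at chr7:46240737-46240986 on the plus strand.

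Strc: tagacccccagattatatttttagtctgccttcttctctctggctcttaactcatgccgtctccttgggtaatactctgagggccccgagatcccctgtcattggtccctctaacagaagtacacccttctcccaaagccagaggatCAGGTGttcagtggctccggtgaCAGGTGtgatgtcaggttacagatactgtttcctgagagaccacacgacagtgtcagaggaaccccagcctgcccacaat

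Otog: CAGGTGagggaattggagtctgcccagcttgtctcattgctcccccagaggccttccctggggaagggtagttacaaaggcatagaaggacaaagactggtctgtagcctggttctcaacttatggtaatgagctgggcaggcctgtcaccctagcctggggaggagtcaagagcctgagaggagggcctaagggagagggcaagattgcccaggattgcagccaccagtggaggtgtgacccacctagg

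Strc held 2 matches and Otog 1, all of them CAGGTG. Neither window held CAGATG or CAGCTG, the E-box cores searched for as those of Atoh1. Of 32851 promoters of the same length, 66.2% held CANNTG, 14.4% CAGATG and 13.0% CAGCTG on either strand. In 9 promoter windows of 7 of the genes, CAGATG was found only in the 2 windows of Tecta, and CAGCTG in none.

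The places of the 9 genes are those of GENCODE M21 in GRCm38. Tecta lies on chromosome 9 from 42329619 to 42399929, Tectb on chromosome 19 from 55180733 to 55196313, and Ceacam16 on chromosome 7 from 19852097 to 19861299. Otog is on chromosome 7 from 46240987 to 46311434 and Otogl on chromosome 10 from 107760531 to 107912134. Emilin2 (71252172 to 71311978) and Col11a2 (34039437 to 34066685) are both on chromosome 17. Otoa is on chromosome 7 from 121081650 to 121163097 and Strc on chromosome 2 from 121363728 to 121387168. Besides Ceacam16, exons of Tecta, Tectb and Strc overlap another annotated gene, by 304, 57 and 10 bases, while the 5 other genes overlap none.

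Tecta and Tectb encode α-tectorin and β-tectorin, the main proteins of the striated matrix. Tecta had 0 reads in all 75 cells, which allows a share of up to 4% of cells with the gene detected, by the rule of 3 cells of the total. Within a group the exact upper limit was wider, such as 20.6% of WT_P60 SCs (0 of 16) and 28.5% of OHC-like cells (0 of 11). Tectb was detected in 6 of 16 WT_P60 SCs (37.5%, interval 15.2 to 64.6%), and where present it was not weak. Cells 6, 9, 12 and 15 held 721, 831, 916 and 495 CPM, cells 7 and 5 held 63.7 and 10.7 CPM, and the other 10 cells were at 0.14 CPM or less. With cells 7 and 5 in between, Tectb thus ranged from 0 to 916 CPM among SCs of 1 group. Outside them it was detected in 1 cell of 59, failing SC 9, which held 35848 reads or 2875 CPM, more than any WT_P60 SC. No OHC-like cell had a Tectb read. Against a floor of 3 counts over the group, the mean was at least 7036-fold lower than in WT_P60 SCs. That fold covers the counting of reads and not the spread between cells. By cells, the interval of 0 of 11 reaches 28.5% and overlaps that of WT_P60 SCs. Nascent HCs had 7 reads in all and WT_P30 OHCs 4.

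Ceacam16 encodes a secreted adhesion protein of the striated matrix. It was the member with the highest level in SCs: per length, its mean was 2973 TPM (a length-corrected level that sums to 1000000 in each cell), against 153 TPM for Otog and 135 TPM for Tectb. All 16 WT_P60 SCs had it, from 210 to 4532 CPM with a median of 1572 CPM. Only 3 of 17 WT_P30 OHCs had it, at 354, 86.5 and 7.5 CPM, and the other 14 had no read. OHC-like cells ranged from 0 to 230 CPM with a median of 22.0 CPM, and 9 of 11 had it detected (81.8%, interval 48.2 to 97.7%). Nascent HCs ranged from 0 to 499 CPM with a median of 0.44 CPM, and 6 of 16 had it detected. In both groups most cells lay under the lowest WT_P60 SC: 10 of 11 OHC-like cells and 14 of 16 nascent HCs did.

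In failing SCs the level of Ceacam16 ran from 0 to 15430.5 CPM with a median of 35.5 CPM, which was 2.26% of the WT_P60 SC median. Of the 15 cells, 11 lay below every WT_P60 SC, 3 lay within their range, and cell 11 lay above all 16. Cell 11 also had the largest total of its group, 15549187 reads, and the highest summed level of 6 SC markers, 6907 CPM. Cell 11 alone held 195410 reads, 95.7% of the reads of its group. With it, the mean of failing SCs was 60.3% of that of WT_P60 SCs. Without it, the log2 ratio went from -0.73 to -4.40. The exons of Ceacam16 overlap those of Gm19345, a gene on the other strand, by 380 bases, and the sources used here do not say whether counting used strand. Gm19345 was the gene with the pattern most like Ceacam16 over the 75 cells (Pearson's r = 0.79), with a median of 122 CPM in WT_P60 SCs and of 0 CPM in failing SCs. In failing SC 11 its level was 14.5 CPM.

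**Figure D1:**
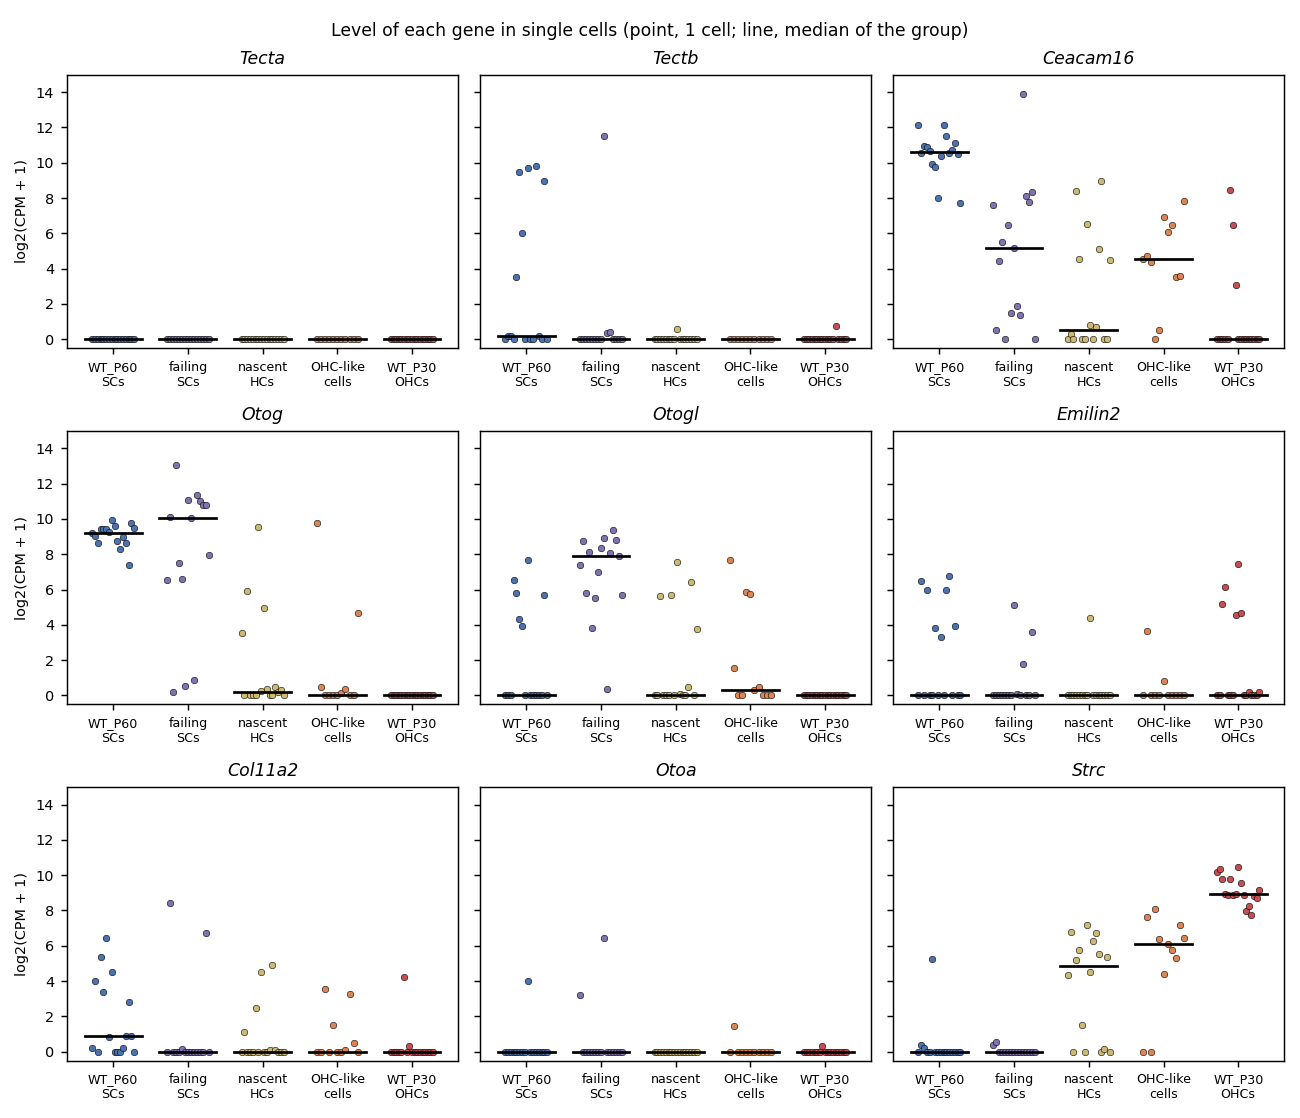
Level of each of the 9 genes as log2(CPM + 1) on the vertical axis, by group on the horizontal axis, with 1 point per cell and a line at the median. Ceacam16 and Otog are high in all 16 WT_P60 SCs, Strc is high in all 17 WT_P30 OHCs, and Otogl is higher in failing SCs (median 238 CPM) than in WT_P60 SCs (median 0 CPM).

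Otog and Otogl encode otogelin and otogelin-like, related giant glycoproteins of the inner ear's acellular gels. Otog was present in every WT_P60 SC, from 165 to 976 CPM with a median of 599.5 CPM, a narrower range than that of Ceacam16. No WT_P30 OHC had a read, so Otog was at least 22684-fold lower there, again against the floor of 3 counts. Failing SCs ranged from 0.15 to 8482 CPM with a median of 1079 CPM. Of these 15 cells, 8 lay above every WT_P60 SC, 5 lay below every one and 2 within their range, so the group was split around the wild type rather than shifted as a whole. Cell 4 had the most, 8482 CPM from 4264780 reads in all, the smallest total of the 75 cells.

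Otogl was a minority gene of SCs and a majority gene of failing SCs. It was detected in 6 of 16 WT_P60 SCs, with a highest level of 206 CPM in cell 9 and a median of 0 CPM. It was detected in 14 of 15 failing SCs (93.3%, interval 68.0 to 99.8%), from 0.29 to 671 CPM with a median of 238 CPM. Of those 15 cells, 8 were above the highest WT_P60 SC. The mean was 240.0 CPM against 27.4 CPM, a log2 ratio of 3.09, and without WT_P60 SC 9 it was 3.87. No WT_P30 OHC had an Otogl read, a mean at least 1064-fold lower than in WT_P60 SCs by the counting of reads only. By cells, the interval of 0 of 17 reaches 19.5% and overlaps the 15.2 to 64.6% of WT_P60 SCs. In WT_P60 SCs, 5 of the 6 cells with Otogl were also among the 6 with Tectb. Those 6 Tectb cells had Otog at 504 to 876 CPM and Ceacam16 at 882 to 1637 CPM, within the range of the other 10 cells for both genes.

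Among new hair cells, Otog was detected in 4 of 16 nascent HCs and 2 of 11 OHC-like cells, against all 16 WT_P60 SCs. Otogl was detected in 5 of 16 nascent HCs and 4 of 11 OHC-like cells, shares near the 6 of 16 of WT_P60 SCs. A pair of cells carried most of the Otog reads. OHC-like cell 1 held 882 CPM of Otog, 96.3% of its group's Otog reads, and 203 CPM of Otogl. Nascent HC 7 held 733 CPM of Otog, 88.2% of the reads of its group, and 50.8 CPM of Otogl. Both had Otog within the range of WT_P60 SCs, and neither had Strc. OHC-like cell 1 also had the highest summed level of 6 SC markers in its group, 859 CPM, and the lowest summed level of OHC markers, 1086 CPM. Nascent HC 7 had 313 CPM of SC markers, under the median of 330 CPM of nascent HCs. The part of these markers in the otogelin levels was not tested.

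**Figure D2:**
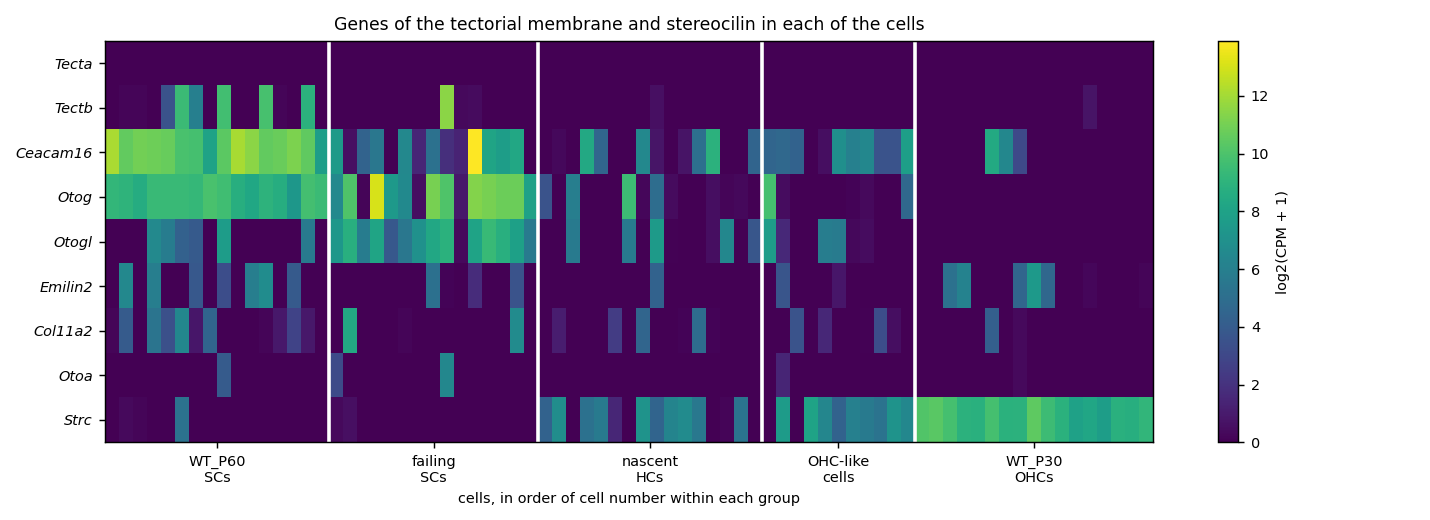
Heat map of log2(CPM + 1) of the 9 genes (rows) in the 75 cells (columns), ordered by cell number within each group. Ceacam16 and Otog fill the block of 16 WT_P60 SCs, Otogl that of failing SCs (14 of 15 cells), and Strc that of 17 WT_P30 OHCs, while Tecta is at 0 throughout.

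Emilin2, a matrix glycoprotein known from the basilar membrane, and Col11a2, a chain of the type XI collagen fibrils, were found in scattered cells of every group. Emilin2 was detected in 7 of 16 WT_P60 SCs and 5 of 17 WT_P30 OHCs, with highest levels of 107 and 175 CPM and medians of 0 CPM in both. It was detected in 3 of 15 failing SCs and in 1 cell each of the nascent HCs (20.1 CPM) and the OHC-like cells (11.6 CPM). The cells with most Emilin2 in the wild-type groups were WT_P60 SC 12 and WT_P30 OHC 9. Their endothelial markers summed to 200.4 and 158 CPM, against group medians of 19.9 and 0 CPM. These sums were Pecam1 alone, since Cldn5 had no read in either cell. The OHC-like cell was cell 2, with blood markers at 2295 CPM. Failing SC 8 (34.4 CPM of Emilin2) and nascent HC 9, the highest of their groups, had endothelial and blood markers at 0 CPM. Their fibroblast markers summed to 110 and 59.5 CPM. Among other WT_P60 SCs with Emilin2, cell 4 (61.7 CPM) had endothelial markers at 6.9 CPM, and cell 9 (8.8 CPM) at 235 CPM. The part of these markers was not tested. Col11a2 was detected in 6 WT_P60 SCs with a highest level of 85.0 CPM, in 2 failing SCs at 340 and 104 CPM, in 4 nascent HCs, in 3 OHC-like cells and in 1 WT_P30 OHC at 17.7 CPM. That OHC, cell 6, was also the one with 354 CPM of Ceacam16. Its summed level of SC markers was 142 CPM, where the median of WT_P30 OHCs was 0 CPM, and it was 1 of 7 cells of low mapping rate.

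Otoa encodes otoancorin, which ties the tectorial membrane to the interdental cells of the spiral limbus, a cell type that was not picked here. It was detected in 4 of the 75 cells: WT_P60 SC 9 at 15.1 CPM, failing SCs 9 and 1 at 84.8 and 8.2 CPM, and OHC-like cell 2 at 1.7 CPM. WT_P60 SC 9 and failing SC 9 both had Tectb as well. In WT_P60 SC 9 endothelial markers summed to 235 CPM, all of it Pecam1, with no Cldn5 read. In OHC-like cell 2 blood markers summed to 2295 CPM. Failing SC 9, with the most Otoa, had endothelial markers at 0.96 CPM and blood markers at 0 CPM. In failing SC 1 these were at 0 and 4.6 CPM. Fibroblast markers summed to 2.9 CPM in failing SC 9 and 26.9 CPM in failing SC 1. The part of these markers was not tested.

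Strc encodes stereocilin, which links stereocilia to one another and crowns the tips of the tallest ones where they meet the tectorial membrane. All 17 WT_P30 OHCs had it, from 210 to 1431 CPM with a median of 484 CPM. OHC-like cells ranged from 0 to 268 CPM with a median of 66.8 CPM, and 9 of 11 had it detected. Nascent HCs ranged from 0 to 143 CPM with a median of 28.5 CPM, and 11 of 16 had it detected (68.8%, interval 41.3 to 89.0%). The 15 failing SCs had 4 reads in all and none had it detected (exact upper limit 21.8% of cells). Among WT_P60 SCs only cell 6 had it, at 36.6 CPM, with its 5 OHC markers at 0 CPM. Its summed level of endothelial markers was 79.1 CPM, where the median of WT_P60 SCs was 19.9 CPM. That sum was Pecam1 alone, with no Cldn5 read, and its part in the Strc level of cell 6 was not tested.

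The order of Strc was thus WT_P30 OHCs, OHC-like cells, nascent HCs, then WT_P60 SCs and failing SCs. Of 11 OHC-like cells, 10 lay below every WT_P30 OHC, and cell 4, at 268 CPM, was within their range. All 16 nascent HCs lay below every WT_P30 OHC. OHC-like cells and nascent HCs overlapped, with 9 of the 11 OHC-like cells in the range of nascent HCs. The mean of OHC-like cells was 13.4% of that of WT_P30 OHCs, and that of nascent HCs 6.31%. OHC-like cell 4 had the fewest genes detected of its group, 3348, and without it the log2 ratio of OHC-like cells to WT_P30 OHCs went from -2.88 to -3.22. For scale, other OHC genes in OHC-like cells stood on either side of Strc, as percentages of the WT_P30 OHC mean. Espn, an actin bundler of stereocilia, was at 126%, and Myo7a, an unconventional myosin, at 169%, or 108% without OHC-like cell 4. Without that cell Strc was at 10.6%. Slc26a5, the motor protein gene, was at 4.02%. Ocm, a calcium buffer, was at 3.99%, or 2.36% without OHC-like cell 5. Tmc1, a transduction channel subunit, was at 3.06%, which rests on 1 cell, since without OHC-like cell 11 it was at 0.034% and 2 of 11 cells had it detected. Myo7a and Slc26a5 were used to define these cells.

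**Figure D3:**
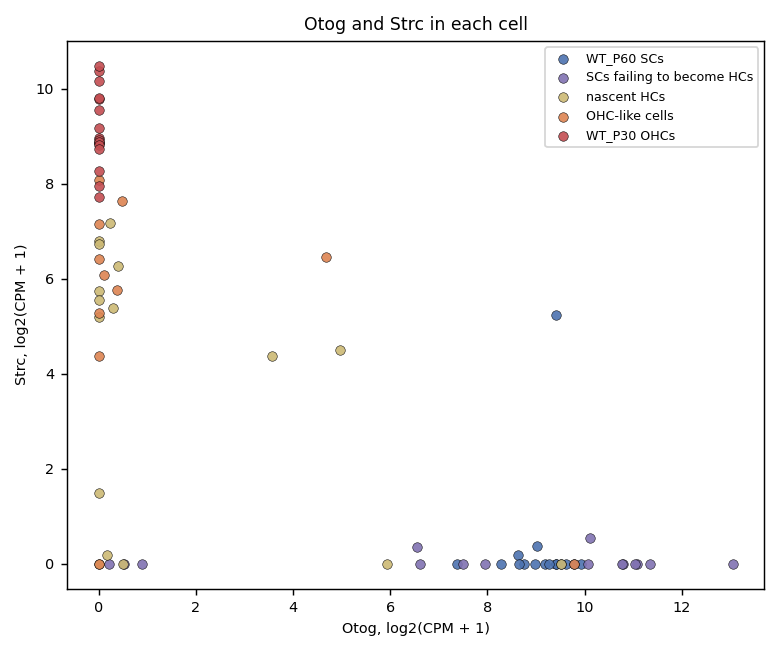
Otog on the horizontal and Strc on the vertical axis, both as log2(CPM + 1), with 1 point per cell coloured by group. WT_P30 OHCs stand on the Strc axis, SCs on the Otog axis, and 3 induced cells and WT_P60 SC 6 have both genes.

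Otog and Strc were seldom found in the same cell. Of 42 induced cells, 3 had both: nascent HCs 1 and 9 and OHC-like cell 11, with Otog between 10.8 and 30.3 CPM and Strc between 19.6 and 86.4 CPM. Over the 75 cells Pearson's r of their log2(CPM + 1) was -0.74, a description that rests on the groups, whose cells also share library series and depth. Otog was itself detected in only 2 of 11 OHC-like cells and 4 of 16 nascent HCs. In the same order Ceacam16 was detected in 9 and 6 cells and Strc in 9 and 11. How often 2 genes met therefore also follows from how many cells had each. Ceacam16 was detected together with Strc in 7 of 11 OHC-like cells and 4 of 16 nascent HCs, so some new hair cells with the anchor gene also had reads of this gel gene. Both genes were also detected in 3 of 17 WT_P30 OHCs, and all 11 OHC-like cells lay within the range of WT_P30 OHCs for Ceacam16. Counting Ceacam16, Otog and Otogl together, 8 of 11 OHC-like cells had Strc and at least 1 of these 3, 1 had Strc without them and 2 had gel genes only. In nascent HCs these numbers were 6, 5 and 5. In WT_P30 OHCs 14 of 17 had Strc without any of the 3, and all 15 failing SCs had gel genes without Strc, 9 of them all 3 genes.

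The genes whose cell pattern was most like each member, by Pearson's r of log2(CPM + 1) over 75 cells, were as follows. For Strc these were Dner (r = 0.86), a transmembrane ligand of Notch, Ankfn1 (0.85) and Slc26a5 (0.85). For Otog they were Bace2 (0.91), a protease, Sparc (0.91), a matrix glycoprotein, and Lad1 (0.88). For Ceacam16, after Gm19345, they were Tmem221 (0.77) and Gjb6 (0.75), a gap junction gene of SCs. For Otogl they were Acot1 (0.74), Zfp467 (0.71) and Cpxm2 (0.71). Acot1 and Cpxm2 had a median of 181 and 90.1 CPM in failing SCs and of at most 0.15 CPM in the other groups. The best r for Emilin2 was 0.47 (Sntb2) and for Col11a2 0.46 (Gm44699), too weak to single out a gene in counts this sparse.

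Of the 9 members, 6 passed the filter on low counts and entered the ratios between groups: Ceacam16, Otog, Otogl, Emilin2, Col11a2 and Strc. Tecta, Tectb and Otoa did not, since too few cells had them. The same ratio was computed for the 11443 genes that passed, and the share of these past 4-fold is given as the background. Of 6 comparisons, 4 share the WT_P60 SCs and are therefore not independent of each other.

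In WT_P30 OHCs against WT_P60 SCs, 1 of the 6 members was higher, Strc (log2 ratio 7.61), where 11.7% of all genes were. Lower were 4 members, where 19.1% of all genes were: Otog (-9.19), Ceacam16 (-6.07), Otogl (-4.83) and Col11a2 (-2.58). Emilin2 was at -0.20. Since Ceacam16 was picked by the study as an SC gene on these libraries, its direction here is not independent evidence. The median of the members was -3.70, beside -0.13 for all genes. Single cells moved some of these values. Strc was at 9.30 without WT_P60 SC 6, Ceacam16 at -8.06 without WT_P30 OHC 6 and Otogl at -4.04 without WT_P60 SC 9. Col11a2 was at -3.60 without WT_P30 OHC 6 and at -1.84, within 4-fold, without WT_P60 SC 6. With the mean of log2(CPM + 1) and with a pseudocount of 5 CPM it was also within 4-fold, at -1.58 and -1.43.

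In OHC-like cells against WT_P60 SCs, Strc was again the 1 member higher (4.73, background 16.3%), and 4 members were lower (background 8.98%): Ceacam16 (-5.07), Emilin2 (-3.46), Otog (-2.81) and Col11a2 (-2.05). Otogl was at 0.07. The median of the members was -2.43 and that of all genes 0.30. Without OHC-like cell 1, Otog was at -7.37. Without OHC-like cell 2, Emilin2 was at -4.44, and without WT_P60 SC 6, Strc was at 6.42. Col11a2 stood at the line of 4-fold: without any one of OHC-like cells 1, 2, 4, 6, 7, 8, 10 and 11 or WT_P60 SCs 4, 6 and 8 it was within 4-fold, between -1.97 and -1.31. Otog was within 4-fold, at -1.38, when each library series weighed the same, and Emilin2, at -1.86, with the mean of log2(CPM + 1).

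In nascent HCs against WT_P60 SCs, Strc was higher (3.66, background 15.7%), and Ceacam16 (-4.86), Otog (-3.46) and Emilin2 (-3.37) were lower (background 7.52%). Col11a2 was at -1.43 and Otogl at -0.16. The median was -2.40 for the members and 0.32 for all genes. Strc was at 5.35 without WT_P60 SC 6, Otog at -6.22 without nascent HC 7, Emilin2 at -4.54 without nascent HC 9 and Ceacam16 at -5.74 without nascent HC 13. Col11a2 was past 4-fold, at -2.09, without nascent HC 12, and Emilin2 within it, at -1.99, with the mean of log2(CPM + 1).

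In failing SCs against WT_P60 SCs, Otogl was the 1 member higher (3.09, background 12.7%) and Emilin2 the 1 lower (-2.47, background 5.76%). Otog was at 1.31, but at -1.18 with the mean of log2(CPM + 1), in which the 5 low cells weigh more. Col11a2 was at 1.32, Ceacam16 at -0.73 and Strc at -1.66, the last from 4 reads against 262 reads, 98.9% of these in WT_P60 SC 6. The median of the members was 0.29, close to the 0.22 of all genes. Without failing SC 11, Ceacam16 was also lower past 4-fold (-4.40), and without failing SC 8 Emilin2 was at -3.57. Emilin2 was within 4-fold with a pseudocount of 5 CPM (-1.74) and with the mean of log2(CPM + 1) (-1.56). Without WT_P60 SC 6, Col11a2 was higher past 4-fold (2.06). Without the 7 cells of low mapping rate, which include both failing SCs with Col11a2 detected, Col11a2 was at -3.60. The summed level of SC markers in failing SCs ran from 271 to 6907 CPM (median 1499 CPM) against 2054 to 9370 CPM (median 4917 CPM) in WT_P60 SCs, and its part in these values was not tested. The failing SCs differ from the WT_P60 SCs in transgenes, in the loss of OHCs and in library series at once, and these cannot be told apart.

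**Figure D4:**
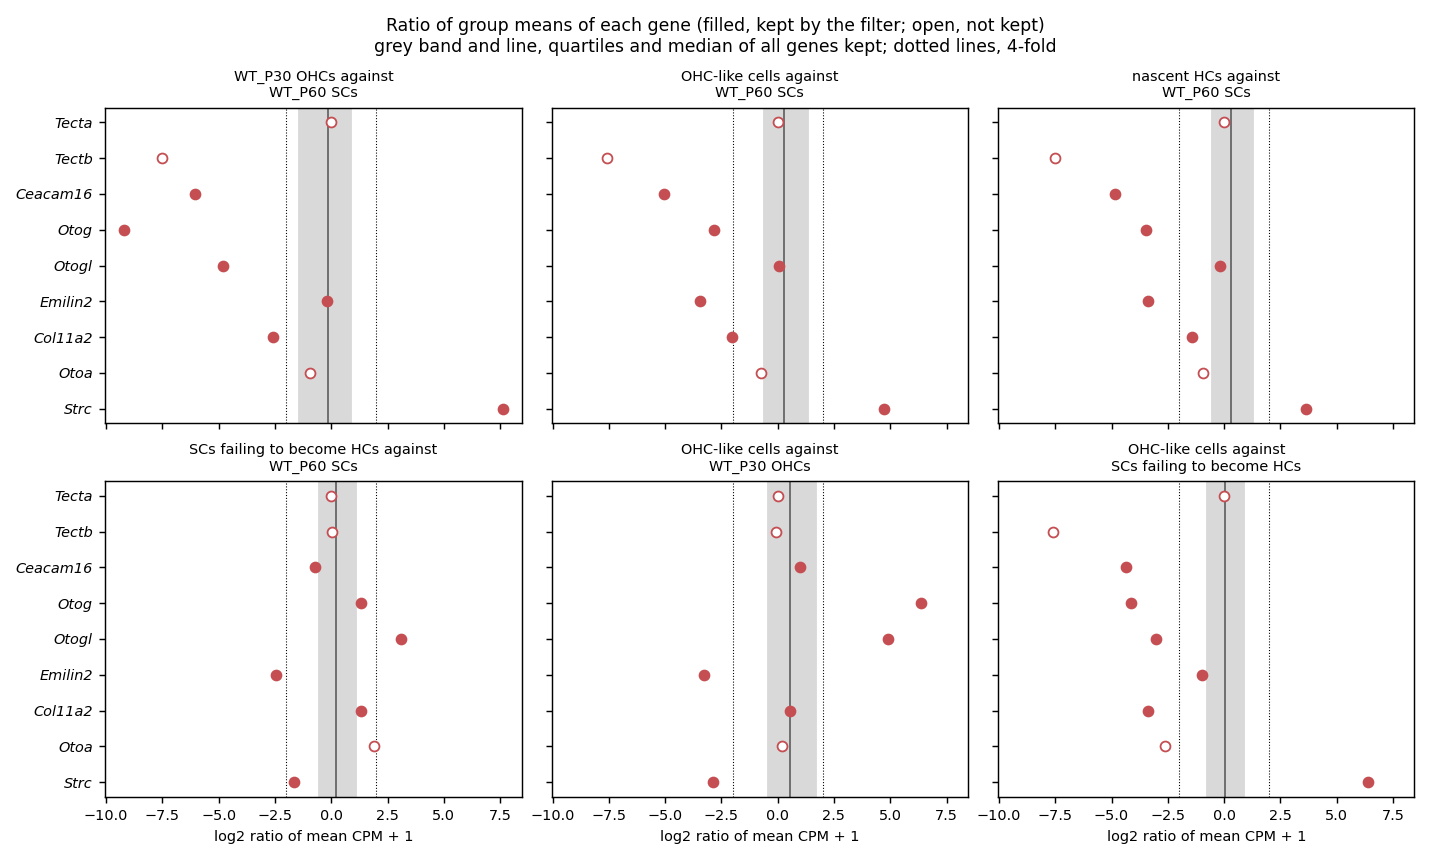
Log2 ratio of mean CPM + 1 (horizontal axis) of each of the 9 genes in the 6 comparisons, with filled points for the 6 genes kept by the filter and open points for the others. The grey band and line are the quartiles and median of the 11443 genes kept, the dotted lines mark 4-fold, and Strc lies opposite to Ceacam16 and Otog in each comparison of hair cells or new hair cells with SCs.

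In OHC-like cells against WT_P30 OHCs, Otog (6.38) and Otogl (4.90) were higher (background 21.6%), and Emilin2 (-3.26) and Strc (-2.88) were lower (background 6.65%). Ceacam16 was at 1.00 and Col11a2 at 0.53. The median of the members was 0.77, beside 0.54 for all genes. The floor of 3 counts covers the counting of reads only. Against it, OHC-like cells exceeded WT_P30 OHCs at least 3206-fold for Otog and at least 1121-fold for Otogl. For Otog that rests on 1 cell: without OHC-like cell 1 its log2 ratio was 1.82, within 4-fold, and that of Otogl 3.63. Ceacam16 was past 4-fold, at 3.00, without WT_P30 OHC 6. Emilin2 was at -4.24 without OHC-like cell 2 and at -2.32 without WT_P30 OHC 9. With the mean of log2(CPM + 1), Otog (1.40), Otogl (1.97) and Emilin2 (-1.27) were within 4-fold and Ceacam16 past it (3.35), and Emilin2 was at -1.99 with a pseudocount of 5 CPM.

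In OHC-like cells against failing SCs, which had the same treatment, Strc was higher (6.39, background 9.49%), and 4 members were lower (background 8.31%): Ceacam16 (-4.34), Otog (-4.12), Col11a2 (-3.37) and Otogl (-3.01). Emilin2 was at -0.98. The median of the members was -3.19, beside 0.05 for all genes. Of 11 OHC-like cells, 9 lay above every failing SC for Strc, 7 lay below every failing SC for Otog and 6 for Otogl. For Ceacam16 all 11 lay within the range of the failing SCs, and without failing SC 11 its log2 ratio was -0.67. Col11a2 was within 4-fold without failing SC 2 (-1.51) and at 1.55, the opposite direction, without the 7 cells of low mapping rate. Otog was at -8.67 and Otogl at -4.28 without OHC-like cell 1, and Otog at -3.50 without failing SC 4. Otogl was within 4-fold, at -1.67, when each library series weighed the same, as were Ceacam16 (-0.43) and Col11a2 (-0.21) with the mean of log2(CPM + 1).

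Library series bore on this comparison, since 10 of 15 failing SCs were in series C, which held no OHC-like cell, and 8 of 11 OHC-like cells in series B and D, which held no failing SC. Both groups met in series A (1 OHC-like cell and 4 failing SCs) and E (2 and 1). In series A the OHC-like cell was within the range of the failing SCs for Ceacam16 (22.0 CPM against 0.5 to 191 CPM), Otog (882 CPM against 0.2 to 8482 CPM) and Otogl (203 CPM against 56.1 to 434 CPM), and had no Strc read. In series E the OHC-like cells had Otog at 0 and 24.6 CPM against 248 CPM, Otogl at 0 CPM against 49.9 CPM, and Strc at 86.4 and 142 CPM against 0 CPM, while Ceacam16 went the other way, 10.8 and 230 CPM against 0 CPM. The differences thus held in series E for 3 genes and not in series A, with at most 4 cells of a group in either, and elsewhere group and series cannot be told apart.

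**Figure D5:**
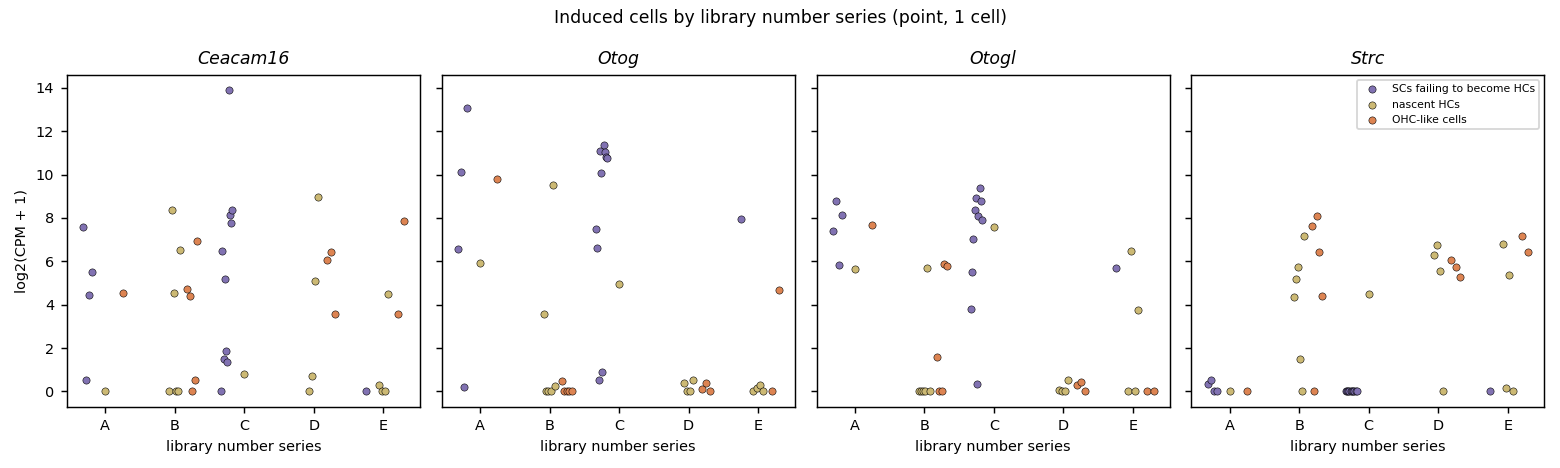
Ceacam16, Otog, Otogl and Strc as log2(CPM + 1) (vertical axis) in the 42 induced cells by library number series A to E (horizontal axis), with 1 point per cell coloured by group. Failing SCs are found in series A, C and E only, and the single OHC-like cell of series A has Otog and no Strc.

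Of 21 further genes of the tectorial membrane and its attachment, 5 passed the filter. None of 6 zona pellucida, mesothelin and otogelin relatives and none of 4 EMILIN and multimerin relatives did. Of 6 other tectorial membrane collagens, Col9a2 and Col9a3, chains of the type IX collagen that coats fibrils, passed. Both were lower past 4-fold in WT_P30 OHCs (-4.08 and -5.69) and in OHC-like cells (-2.38 and -5.35) than in WT_P60 SCs. In failing SCs Col9a2 was at 0.51 and Col9a3 at -2.98, so the 2 chains stood apart there.

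Of 5 partners in attachment and processing, 3 passed. Tmem145, a membrane protein of OHCs, was detected in 13 of 17 WT_P30 OHCs with a median of 31.8 CPM, in 2 of 11 OHC-like cells, in 3 of 16 nascent HCs and in no failing SC. Its mean in OHC-like cells was 19.2% of that of WT_P30 OHCs. Hpn encodes hepsin, a membrane protease whose loss distorts the tectorial membrane. It was detected in 14 of 16 nascent HCs (median 82.6 CPM) and 9 of 11 OHC-like cells (median 74.2 CPM), but in 3 of 16 WT_P60 SCs, 2 of 15 failing SCs and no WT_P30 OHC, where it had 0 reads. In OHC-like cells and nascent HCs Hpn was at 3.26 and 3.28 against WT_P60 SCs, and OHC-like cells exceeded WT_P30 OHCs by at least 3905-fold. Furin, a protease of the secretory pathway, was detected in most cells of every group, with medians between 9.5 and 28.5 CPM.

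Summed over the 9 genes, there were 59 detections in the 16 WT_P60 SCs, 46 in the 15 failing SCs, 31 in the 16 nascent HCs, 29 in the 11 OHC-like cells and 26 in the 17 WT_P30 OHCs. The median number of the 9 genes per cell was 4, 3, 2, 3 and 1 in that order, and every cell had at least 1. Over all genes, the median number detected per cell was 6872.5, 6977, 8066.5, 8488 and 4777 in the same order. The groups thus also differed in how many genes of any kind were detected.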

How the data were processed

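The deposited table holds raw counts of reads per gene for 75 single-cell Smart-Seq libraries. Per the study's methods, the authors checked reads with FastQC 0.11.9, trimmed them with Trimmomatic 0.39, aligned them with HISAT2 2.1.0 to GRCm38 and made the counts with HTSeq 0.10.0. StringTie 1.3.5 is also named. The annotation release and the strand setting of counting are not given in the sources used here. There were no molecular identifiers, so reads copied from 1 molecule could not be told apart. Intervals of shares cover the counting of cells only.

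All 75 columns were used. The row for WPRE, a vector element and not a gene, held 0.0254% of counts and was left out, which left 55291 genes. Total counts were 4264780 to 22934062 per cell. Genes were filtered with filterByExpr by group (minimum count of 10), and counts were scaled to CPM by TMM with edgeR 4.0.16 in R 4.3.3. Group ratios are log2 of mean CPM + 1 over cells. TPM used exon lengths of GENCODE M21. Intervals of shares were exact (scipy 1.17.1) at 95%, and the floor for a group at 0 was 3 counts over the group. Folds against that floor cover the counting of reads, and neither the spread between cells nor the copying of molecules in amplification. No statistical test was run, because each library is 1 cell and no animal is named. The ratio step was tested on simulated data.

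The genes named are the 9 members, each filtered-in gene of the further lists with a mean of at least 10 CPM in a group, the 3 genes most correlated with each member, and markers. Members and lists were chosen with earlier results of these data known. Alternatives were other scalings (among them DESeq2 1.42.0 size factors), pseudocounts of 0.1 and 5 CPM, no filter, summed counts, the mean of log2(CPM + 1), a 2-fold limit, equal depth, series means, detection limits, and cells left out, including 7 with a mapping rate under 0.7 in the study's records.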

Additional observations from a re-analysis of the deposited data

How the results depend on the processing

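No paired analysis was possible because the results come from no test and cell numbers only name cells. Groups that share a library series were instead compared within it. Of the ratios of members past 4-fold, 1 changed direction: Col11a2 in OHC-like cells against failing SCs, at 1.55 without the 7 cells of low mapping rate. Ratios within 4-fold also changed sign. Emilin2 in WT_P30 OHCs against WT_P60 SCs was at 0.33 with DESeq2 size factors. Otogl against WT_P60 SCs was at -0.07 in OHC-like cells with TMMwsp, -0.23 with summed counts and -0.16 with the mean of log2(CPM + 1), and at 0.97 in nascent HCs with series means. With the mean of log2(CPM + 1), failing SCs against WT_P60 SCs were at -1.18 for Otog and -0.82 for Col11a2, the latter at -3.60 without the 7 cells. Over all settings, 15 values moved by more than 1 SD between cells of the more variable group, on the log2(CPM + 1) scale, and 1 reversed. The other 392 did not pass that wide limit, which still lets a ratio move by over 4-fold. With a pseudocount of 5 CPM, Otogl in WT_P30 OHCs against WT_P60 SCs went from -4.83 to -2.69 and Strc in OHC-like cells against failing SCs from 6.39 to 4.18. Scaling moved the median of all genes most in OHC-like cells against WT_P30 OHCs, from 0.54 to 0.14 with DESeq2 size factors.

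With the mean of log2(CPM + 1), in which single high cells weigh less, members lower were 2 in OHC-like cells against WT_P60 SCs, 2 against failing SCs and 1 against WT_P30 OHCs, and 1 was higher in the last. In failing SCs against WT_P60 SCs, 3 members were higher and 2 lower at a fold of 2. Lower members there were 2 with a pseudocount of 0.1 CPM, 0 with 5 CPM, 2 without the 7 cells of low mapping rate and 2 without failing cell 11, a choice made after seeing the data. With a pseudocount of 5 CPM, 1 member was lower in OHC-like cells than in WT_P30 OHCs. Leaving out 1 cell at a time gave 1 to 2 members higher and 1 to 2 lower in failing SCs, and 1 to 3 members higher in OHC-like cells than in WT_P30 OHCs. The cause of these moves was not tested. Detections changed with the limit, from 59 in WT_P60 SCs to 69 at 1 count and 56 at 10 CPM, and from 31 in nascent HCs to 45 and 28. At equal depth they were 59 and 31.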
